A study of Mus musculus with 12 samples.

Results

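Histone deacetylases are enzymes that remove acetyl groups from lysines of histones and other proteins. The 10 genes named Hdac1 to Hdac10 were taken by their gene names from the 41457 genes listed for each library, and each name matched a single row. Hdac1, Hdac2, Hdac3 and Hdac8 form class I, Hdac4, Hdac5, Hdac7 and Hdac9 form class IIa, and Hdac6 and Hdac10 form class IIb. All 10 passed the filter on low read counts in every comparison of total reads.

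Poly(A) RNA was sequenced from 12 libraries of mouse CD4+ T helper cells, 1 library for each combination of 3 culture conditions, 2 genotypes and 2 days. The genotypes were C57BL/6 wild type (WT) and NFATc1/ΔS, whose transcription factor NFATc1 cannot be joined to the small protein SUMO. CD4+ T cells from spleen and lymph nodes were stimulated with antibodies to CD3 and CD28 and collected at day 2.5 or day 3.5. Th1 cultures received IL-12 and an antibody to IL-4, Th2 cultures IL-4 and an antibody to IFN-γ, and Th17 cultures TGFβ, IL-6 and both antibodies. Th17 cultures also had less anti-CD3 and grew in IMDM instead of RPMI medium, and these differences cannot be told apart from the Th17 cytokines. Nothing in the labels states that each library had its own animal or culture. The p values therefore rest on the scatter of these libraries, which may be technical. The SUMO sites of NFATc1 cannot be seen in gene-level counts, and no value here checks the genotype labels.

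Class I enzymes are nuclear. HDAC1 and HDAC2 are the closely related catalytic subunits of the NuRD, Sin3 and CoREST corepressor complexes, and HDAC3 works in the NCoR complex. Class IIa enzymes have weak activity of their own, bind MEF2 transcription factors, and leave the nucleus when kinases that respond to T cell receptor and calcium signals phosphorylate them, since 14-3-3 proteins then hold them in the cytoplasm. HDAC6 acts on tubulin and other cytoplasmic proteins, and HDAC10 acts on polyamines. SUMO-joined NFATc1 is known to recruit histone deacetylases to target genes such as Il2, which is why their RNA levels were followed across genotypes, cell types and days.

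The stretches before the transcription starts of the class IIa genes are shown because Hdac4, Hdac5 and Hdac7 fell over time in Th2 and Th17 cultures while Hdac9 was close to 0. They are the 250 bases before the annotated start, written 5′ to 3′ on the gene's own strand, from RefSeq on GRCm38.p6. All 4 genes lie on the minus strand, and the windows are chr1:92180342-92180591 for Hdac4, chr11:102230173-102230422 for Hdac5, chr15:97831496-97831745 for Hdac7 and chr12:34528890-34529139 for Hdac9. Where several starts were annotated (4 for Hdac7 and 2 for Hdac9), the start with most CpG is shown. Capitals mark matches, on either strand, to GGAAA (the core letters of NFAT sites), TGANTCA (the letters of AP-1 sites), the outer letters of MEF2 sites (CTA and TAG, 4 letters apart) and the CCAAT box.
Hdac4: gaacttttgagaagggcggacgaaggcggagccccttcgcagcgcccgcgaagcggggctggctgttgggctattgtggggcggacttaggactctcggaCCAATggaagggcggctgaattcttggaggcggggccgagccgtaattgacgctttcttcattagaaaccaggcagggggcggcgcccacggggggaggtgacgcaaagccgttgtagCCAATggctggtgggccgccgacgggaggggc
Hdac5: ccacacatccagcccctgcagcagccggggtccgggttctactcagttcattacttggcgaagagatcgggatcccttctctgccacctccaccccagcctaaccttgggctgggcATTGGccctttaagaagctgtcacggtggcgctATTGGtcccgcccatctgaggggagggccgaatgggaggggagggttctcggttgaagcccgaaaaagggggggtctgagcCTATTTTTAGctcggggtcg
Hdac7: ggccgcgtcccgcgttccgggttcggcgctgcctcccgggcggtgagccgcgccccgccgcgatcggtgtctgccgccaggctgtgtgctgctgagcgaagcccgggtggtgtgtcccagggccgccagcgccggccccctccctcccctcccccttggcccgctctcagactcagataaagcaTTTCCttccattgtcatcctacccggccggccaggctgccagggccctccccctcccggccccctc
Hdac9: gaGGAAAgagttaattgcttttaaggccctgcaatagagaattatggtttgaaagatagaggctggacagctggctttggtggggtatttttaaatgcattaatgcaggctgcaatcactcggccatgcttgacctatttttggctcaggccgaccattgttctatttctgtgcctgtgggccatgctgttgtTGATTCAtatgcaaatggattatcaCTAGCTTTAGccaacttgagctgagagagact

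Hdac4 and Hdac5 each held 2 CCAAT matches and no GGAAA in these windows, and Hdac5 held the MEF2 letters CTATTTTTAG 20 bases before its start. Hdac7 held 1 GGAAA match and none of the other motifs. Hdac9 held GGAAA, the AP-1 letters TGATTCA and the outer MEF2 letters in CTAGCTTTAG, whose inner letters differ from those of the Hdac5 match. Of all 32851 RefSeq promoter windows of this length, 55.6% held GGAAA, 6.75% the AP-1 letters, 3.2% the MEF2 letters and 33.8% the CCAAT box. The Hdac4 and Hdac7 windows held 23 and 25 CpG, more than 86.7% and 89.3% of all windows, and the Hdac5 window held 12. The Hdac7 window was picked from 4 for having most CpG, and the others held 5, 6 and 21. The 2 Hdac9 windows held 2 and 0 CpG, against a median of 6 over all windows. Such matches describe letters in the window and do not show binding. The RefSeq table matched 7 of the 10 genes.

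Each library held 13417121 to 17774400 reads on genes, of which 2.28 to 4.34% fell in introns. The summed markers of each lineage were highest in the cultures that should hold them, though not every single marker was: the sum of 5 Th1 markers was 451 to 594 CPM (gene reads scaled to equal library totals) in Th1 libraries and at most 191 elsewhere. Both Th1 libraries of day 2.5 stood apart. Across genes, the library labelled Th1 WT day 2.5 correlated better with Th17 libraries (r of 0.966 to 0.982) than with the other Th1 libraries (0.955 to 0.958). The library labelled Th1 NFATc1/ΔS day 2.5 had an r of 0.883 to 0.908 to Th2, 0.907 to 0.949 to Th17 and 0.925 to 0.955 to Th1. Log2 differences between these 2 libraries had a standard deviation (SD) of 0.839 across genes, against 0.353 to 0.427 in the other 5 pairs of WT and NFATc1/ΔS libraries. The main results of the members that rest on these libraries are also given without them. Fits without both hold Th1 at day 3.5 only, so they also drop a day from Th1. The gene lists compared between cell types, and the correlations with other genes, are given only with these 2 libraries.

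Hdac7 and Hdac1 had the highest RNA levels of the family in all 12 libraries, and Hdac9 had the lowest. Levels of different genes were compared in TPM (exon reads per exon length, scaled to equal totals). Hdac7 (ENSMUSG00000022475, chromosome 15, 97792664 to 97844502), a class IIa enzyme known for its role in thymocyte survival, had 118 to 295 TPM with a median of 258. Hdac1 (ENSMUSG00000028800, chromosome 4, 129516104 to 129542713) had 94.0 to 225 TPM with a median of 130.3. Hdac7 was the higher of the 2 in 11 of 12 libraries and lower only in Th1 NFATc1/ΔS day 2.5, which had 118 TPM of Hdac7 and 225 TPM of Hdac1.

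Hdac2, Hdac3 and Hdac5 followed in this order in every library. Hdac2 (ENSMUSG00000019777, chromosome 10, 36974544 to 37001889) had 54.6 to 83.6 TPM, Hdac3 (ENSMUSG00000024454, chromosome 18, 37935844 to 37954988) 35.7 to 55.1 TPM, and Hdac5 (ENSMUSG00000008855, chromosome 11, 102194432 to 102230166) 14.6 to 35.4 TPM. Hdac6 (ENSMUSG00000031161, chromosome X, 7930120 to 7947889) had 10.1 to 16.2 TPM and ranked 6 or 7. The ranges of Hdac4, Hdac8 and Hdac10 overlapped, and their order changed between libraries. Hdac4 (ENSMUSG00000026313, chromosome 1, 91928779 to 92195699) had 4.25 to 12.6 TPM, Hdac10 (ENSMUSG00000062906, chromosome 15, 89123307 to 89128700) 5.43 to 9.81 TPM and Hdac8 (ENSMUSG00000067567, chromosome X, 102284639 to 102505359) 4.32 to 8.39 TPM. Hdac9 (ENSMUSG00000004698, chromosome 12, 34047580 to 34917095) stayed at 0.01 to 0.28 TPM.

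**Figure D1:**
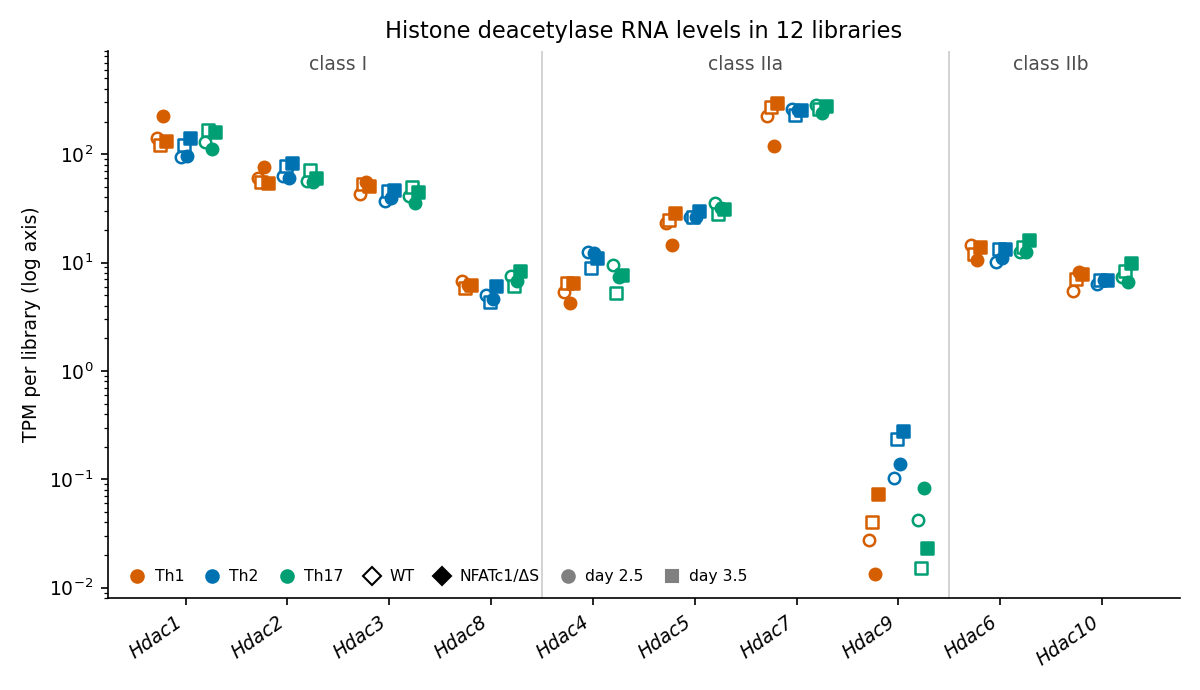
RNA level of each histone deacetylase in TPM (log axis) in 12 libraries, coloured by cell type, open for WT and filled for NFATc1/ΔS, round for day 2.5 and square for day 3.5. Hdac7 and Hdac1 lie on top, the filled round Th1 point departs from the rest in both, and Hdac9 lies below 0.28 TPM throughout.

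Summed over the family, the level was 505 to 618 TPM per library. Class I held 38.5 to 69.9% of this sum, class IIa 26.5 to 58.4% and class IIb 3.18 to 4.20%. The highest share of class I and the lowest of class IIa came from the library labelled Th1 NFATc1/ΔS day 2.5, and the opposite ends of both ranges from Th2 WT day 2.5. Outside Th1 NFATc1/ΔS day 2.5, class I held at most 48.4% and class IIa at least 47.9%.

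Most Hdac9 reads came from introns. The 4 Th1 libraries (in the order WT day 2.5, WT day 3.5, NFATc1/ΔS day 2.5, NFATc1/ΔS day 3.5, used for every list of 4 below) held 2, 3, 1 and 6 exon reads of Hdac9. The Th2 libraries held 8, 18, 11 and 19 exon reads, and the Th17 libraries 3, 1, 6 and 2. All Th2 libraries lay above all others in exon reads. Introns held 74.0 to 98.8% of the Hdac9 reads in each library, against at most 11.3% for any other member but Hdac8. Intron reads of Hdac9 numbered 59, 78, 148 and 54 in Th2 and 57, 50, 138 and 68 in Th17, with the NFATc1/ΔS libraries of day 2.5 highest in both. In Th1 they numbered 64, 63, 82 and 93. Other annotated genes lie inside the long introns of Hdac9, so its intron reads cannot be assigned to Hdac9 with certainty.

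**Figure D2:**
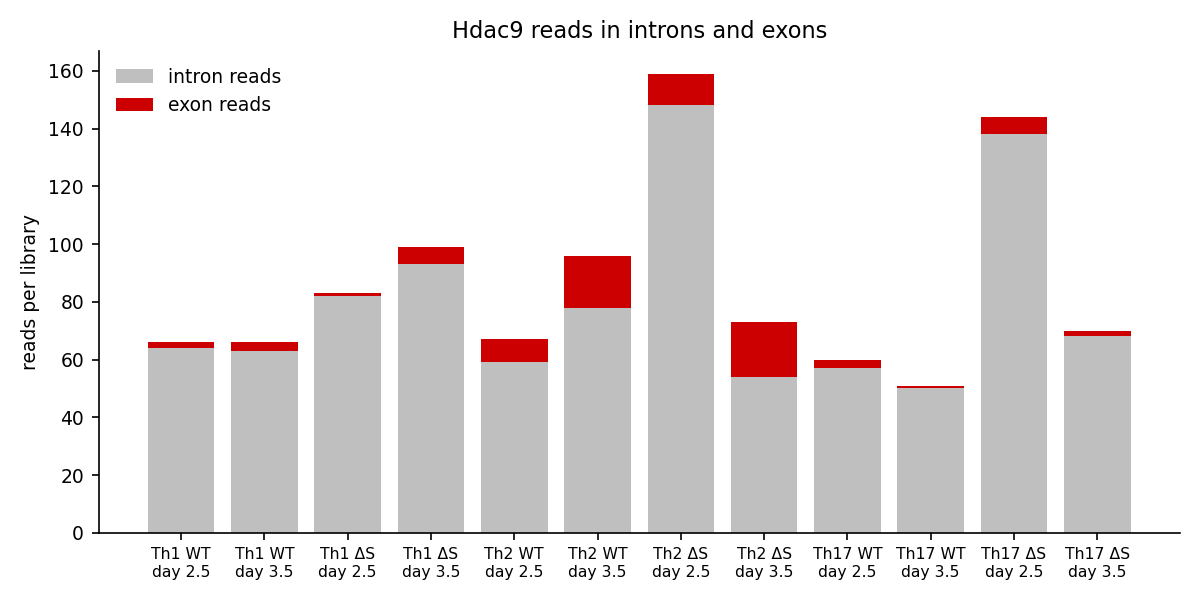
Hdac9 reads per library, split into intron reads (grey) and exon reads (red) and stacked from 0. Exon reads reach 19 at most and are most frequent in the 4 Th2 libraries, and 2 libraries, Th2 and Th17 NFATc1/ΔS of day 2.5, hold 148 and 138 intron reads.

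Hdac8 was the other member with many intron reads. Introns held 21.2 to 45.8% of its reads, and 58.5 to 72.1% of its reads mapped uniquely, against at least 97.8% for the other members but Hdac9. A gene on the opposite strand overlaps Hdac8, and the counting is not stated to use strand. The total reads of Hdac8 are therefore uncertain, and differences in its exon reads are given beside those in total reads.

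Among the 3 genes that followed Hdac1 most closely over the 12 libraries were Champ1 (r = 0.99) and Rbm19 (0.98). Those most like Hdac7 included Plcxd1 and Vldlr (0.99 and 0.98). For Hdac5 they were Trip10, Pcnx and Galnt6 (0.98, 0.97 and 0.97), and for Hdac4 Foxn3, Stard5 and Pear1 (0.97, 0.96 and 0.96). These are Pearson correlations of log2 CPM over 10186 genes, given as a description. They share the libraries, and were not computed without the Th1 libraries of day 2.5. Within the family, Hdac5 and Hdac7 were most alike (r = 0.88), and Hdac1 and Hdac7 most opposite (r = -0.90).

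The first comparison asked whether losing the SUMO sites of NFATc1 changed the RNA of the enzymes it is known to recruit. Over 6 pairs of libraries of equal cell type and day, no member passed the test, and every value but that of Hdac9 lay within 0.16 of 0 on the log2 scale. The log2 fold changes (NFATc1/ΔS over WT) with their standard errors (SE) were 0.11 ± 0.10 for Hdac1, -0.01 ± 0.09 for Hdac2 and -0.02 ± 0.08 for Hdac3. The class IIa genes stood at 0.01 ± 0.11 for Hdac4, -0.07 ± 0.11 for Hdac5, -0.16 ± 0.13 for Hdac7 and 0.48 ± 0.24 for Hdac9. Hdac8 stood at 0.10 ± 0.10 (0.09 ± 0.11 in exon reads), Hdac6 at -0.002 ± 0.10 and Hdac10 at 0.14 ± 0.12. With edgeR's quasi-likelihood test and Benjamini-Hochberg adjustment over all genes, 0 of 10 members and 0% of 13503 genes had an adjusted p under 0.05. No member had an unadjusted p under 0.05, while 773 of all genes did, and DESeq2 and limma-voom called no member.

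A single pair held the widest differences of 7 members. In Th1 at day 2.5 the log2 CPM difference was 0.64 for Hdac1, 0.36 for Hdac2 and 0.35 for Hdac3, and -0.90 for Hdac7, -0.67 for Hdac5 and -0.42 for Hdac6. For these 6 genes the other 5 pairs lay between -0.30 and 0.18. Hdac10, the seventh, stood at 0.59 there and between -0.11 and 0.24 in the other pairs. Hdac7 in particular stood at 0.07 in Th1 at day 3.5, at -0.04 and -0.001 in Th2, and at -0.15 and 0.07 in Th17, the earlier day first. This pair holds the 2 libraries that stood apart, and its differences have no replicate check.

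**Figure D3:**
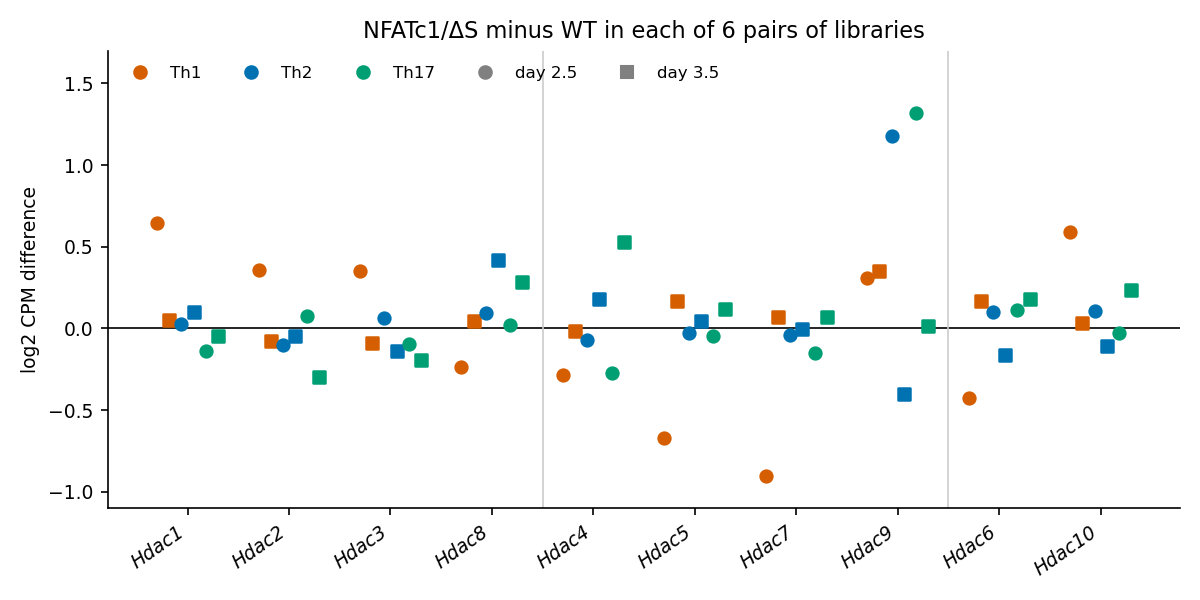
Log2 CPM difference, NFATc1/ΔS minus WT, of each member in each of 6 pairs of libraries, coloured by cell type, round for day 2.5 and square for day 3.5. Most points lie near 0, the Th1 pair of day 2.5 is lowest for Hdac7 (-0.90) and highest for Hdac1 (0.64), and Hdac9 reaches 1.18 and 1.32 in Th2 and Th17 at day 2.5.

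Without Th1, the 4 pairs of Th2 and Th17 again gave 0 of 10 members called, where 1.96% of 13086 genes were called (edgeR, adjusted p under 0.05). Hdac1 stood at -0.01 ± 0.06, Hdac5 at 0.02 ± 0.06 and Hdac7 at -0.03 ± 0.07, all close to 0. Hdac8 stood at 0.20 ± 0.10 (edgeR adjusted p = 0.37) in total reads and at 0.16 ± 0.12 (0.62) in exon reads. By log2 CPM of total reads, which carries TMM scaling between libraries, NFATc1/ΔS was above WT in all 4 pairs. The Th17 pair of day 2.5 differed by 0.02 there, and by CPM scaled to library totals alone it had 21.4 against 22.0. By TPM, which uses exon reads, NFATc1/ΔS was above WT only in the 2 pairs of day 3.5. Hdac9 stood at 0.57 ± 0.35 (edgeR adjusted p = 0.57): the day 2.5 pairs differed by 1.18 in Th2 and 1.32 in Th17 on the log2 CPM scale, the day 3.5 pairs by -0.40 and 0.02. Most of the extra Hdac9 reads of the day 2.5 pairs were intron reads. With no filter on low counts Hdac9 was called at 0.58 ± 0.17 (edgeR adjusted p = 0.031), where 2.67% of genes were called. No member had an unadjusted p under 0.05 in edgeR, and limma-voom gave one to Hdac9 alone without calling it.

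Whether the genotype effect differed between the cell types was tested directly, and no member passed (edgeR, adjusted p = 0.98 for each of 10; 0% of 13503 genes called and 324 at an unadjusted p under 0.05). The test of a difference between days also called 0 of 10 members and 0% of genes, with 953 genes at an unadjusted p under 0.05. There, Hdac4 (0.44 ± 0.17) and Hdac9 (-0.98 ± 0.35) had an unadjusted p of 0.0317 and 0.0244 and an adjusted p of 0.64 (edgeR, day 3.5 minus day 2.5). For both interaction tests, DESeq2 and limma-voom called no member either.

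The partners of these enzymes were read from lists of corepressor subunits, class IIa partners and kinases, acetyltransferases and the other deacetylases (Hdac11 and the sirtuins). Over 6 pairs no measured gene on these 7 lists was called, and list medians ran from -0.02 to 0.07 against 0.01 over all genes. Over the 4 pairs of Th2 and Th17 none was called either, with medians from -0.03 to 0.08 against 0.00.

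Between the cell types, the clearest difference was that of Hdac4, which was lower in Th1 than in Th2. HDAC4 is a class IIa corepressor of MEF2. Its level was 31.2, 36.7, 24.4 and 37.1 CPM in Th1, 74.8, 53.9, 72.8 and 66.1 CPM in Th2 and 56.9, 30.9, 45.2 and 45.7 CPM in Th17. Every Th2 library but that of WT day 3.5 lay above every Th17 library, and Th1 did not overlap with Th2. Th1 over Th2 gave a log2 fold change of -1.16 ± 0.21 (edgeR adjusted p = 0.0042), with Th1 lower in 4 of 4 combinations of genotype and day. In bulk RNA, fewer cells that express a gene and less RNA per cell cannot be told apart.

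Hdac4 was the single member called, 1 of 10, where 28.1% of 13503 genes were called between Th1 and Th2. Hdac2 stood at -0.40 ± 0.13 (edgeR adjusted p = 0.054) and Hdac5 at -0.46 ± 0.19 (0.096). The other 7 members had an edgeR adjusted p of 0.22 or more. Without both Th1 libraries of day 2.5, Th1 is left at day 3.5 only. The value of Hdac4 was then -0.74 and Hdac2 was called too, at -0.63 (edgeR adjusted p = 0.000332 and 0.000174). That made 2 of 10 members where 46.5% of genes were called. Hdac5 then stood at -0.11 and Hdac7 at 0.12, against -0.34 ± 0.23 for Hdac7 with all libraries, and neither was called.

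Hdac2 was set against Hdac1, its partner in NuRD, Sin3 and CoREST. Hdac2 had 94.7, 85.6, 116 and 83.2 CPM in Th1, 103, 125, 97.8 and 131 CPM in Th2, and 88.5, 110.2, 89.6 and 91.8 CPM in Th17. Hdac1 had 177, 153, 264 and 163 CPM in Th1, 119, 153, 124 and 177 CPM in Th2, and 162, 205, 142 and 203 CPM in Th17. The levels of either gene overlapped between cell types, but their ratio in TPM did not overlap between Th2 and the rest. Hdac1 over Hdac2 was 1.49, 1.54, 1.60 and 1.67 in Th2, 2.31, 2.23, 2.92 and 2.40 in Th1, and 2.29, 2.33, 1.99 and 2.67 in Th17. The ratio was chosen after its values were seen and has no test of its own.

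**Figure D4:**
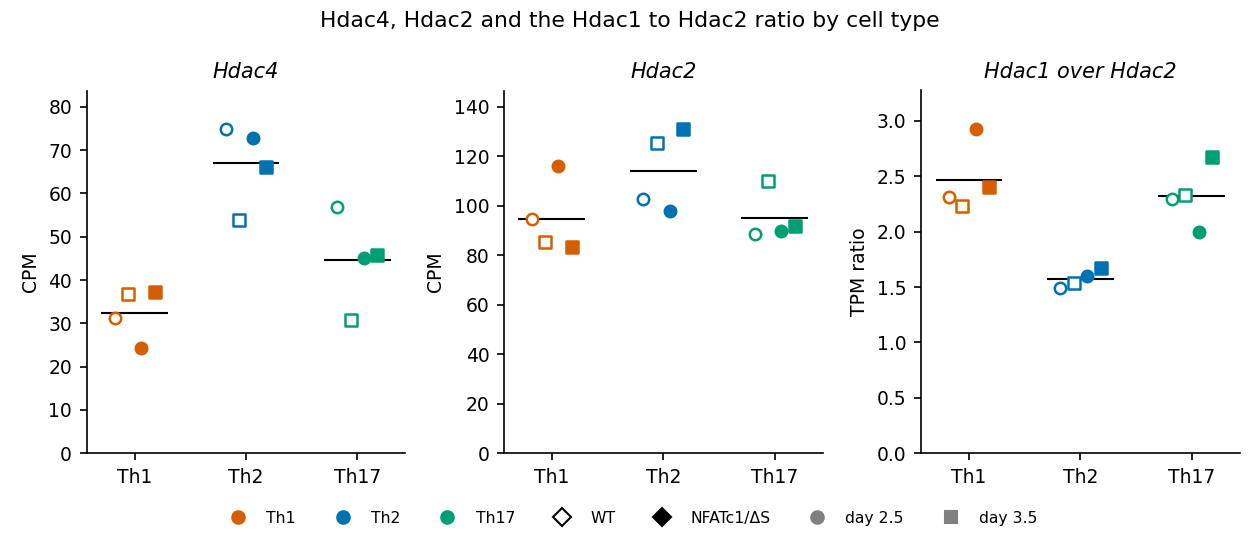
Level of Hdac4 and of Hdac2 in CPM, and the TPM ratio of Hdac1 to Hdac2, in each library by cell type, with a bar at the mean of 4 libraries, open for WT and filled for NFATc1/ΔS, round for day 2.5 and square for day 3.5. Hdac4 is 24.4 to 37.1 CPM in Th1 and 53.9 to 74.8 CPM in Th2, and the ratio is 1.49 to 1.67 in Th2 and at least 1.99 elsewhere.

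Between Th2 and Th17, Hdac8 was lower in Th2 by total reads, and no other member passed the test in the fit to all 12 libraries. HDAC8 is a class I enzyme that works outside the large corepressor complexes and acts on the cohesin subunit SMC3. In total reads it had 11.0, 10.0, 12.1 and 14.6 CPM in Th2 and 22.0, 16.7, 21.4 and 20.9 CPM in Th17, with no overlap. By TPM, which uses exon reads, the ranges overlapped, with 6.11 in Th2 NFATc1/ΔS day 3.5 and 6.01 in Th17 WT day 3.5. Th2 over Th17 gave -0.64 ± 0.13 (edgeR adjusted p = 0.014), the single call among 10 members where 11.8% of genes were called. In the same 12 libraries the difference did not pass by exon reads (-0.36 ± 0.12, edgeR adjusted p = 0.093) or by unique reads (-0.50 ± 0.14, 0.0511). The call was also lost without any 1 of 5 libraries, Th2 WT of either day, Th2 NFATc1/ΔS day 2.5 or either Th17 library of day 2.5 (edgeR adjusted p from 0.0521 to 0.0835, log2 fold change from -0.64 to -0.54). Hdac4 stood at 0.72 ± 0.20 (0.051) and Hdac2 at 0.39 ± 0.13 (0.10), each with Th2 above Th17 in 4 of 4 combinations.

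Fitted to the 8 Th2 and Th17 libraries alone, these differences kept their size and had smaller errors. Hdac4 stood at 0.72 ± 0.07, Hdac2 at 0.38 ± 0.07, Hdac8 at -0.64 ± 0.09 and Hdac1 at -0.19 ± 0.06 (edgeR adjusted p = 4.1e-05, 0.0016, 0.00042 and 0.028). That is 4 of 10 members called where 40.4% of genes were called. Exon reads of these 8 libraries gave the same 4 calls, with Hdac8 at -0.37 ± 0.10, and added Hdac9 at 2.28 ± 0.56 (edgeR adjusted p = 0.0078), 5 of 10 where 41.2% of genes were called. Leaving only the 2 Th1 libraries of day 2.5 out of the 12 gave 4 of 10 called where 41.2% of genes were called. The exon reads of Hdac9, 1 to 19 per library, also set Th1 below Th2 at -2.38 (edgeR adjusted p = 0.0216), and with Hdac4 that made 2 of 10 members called where 28.6% of genes were called by exon reads.

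Between Th1 and Th17 no member passed, where 4.66% of 13503 genes were called. Hdac8 came closest at -0.47 ± 0.13 (edgeR adjusted p = 0.072) in total reads, against -0.21 ± 0.12 (0.31) in exon reads. Next were Hdac5 at -0.52 ± 0.19 (0.14) and Hdac3 at 0.22 ± 0.09 (0.19), and these 3 had an unadjusted p under 0.05. Hdac5, a class IIa relative of HDAC4, was lower in Th1 than in Th17 in 4 of 4 combinations, with 72.7, 76.2, 43.6 and 87.7 CPM in Th1 and 110.8, 85.0, 102.9 and 94.7 CPM in Th17. Without both Th1 libraries of day 2.5, so with Th1 at day 3.5 only, its difference was -0.16 ± 0.09 (edgeR adjusted p = 0.19). With all libraries, DESeq2 called Hdac8 alone where it called 12.5% of genes, and limma-voom called no member where it called 5.53%. Without both Th1 libraries of day 2.5, Hdac1 was called with the opposite sign, -0.33 against 0.08 ± 0.20 with all libraries (edgeR adjusted p = 0.0071). It was 1 of 10 members where 30.4% of genes were called, with Th1 at day 3.5 only. Its Th1 minus Th17 log2 CPM differences were -0.38 and -0.28 at day 3.5 and 0.06 and 0.84 at day 2.5, WT first.

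Markers of B cells and dendritic cells moved with these comparisons. The summed level of 9 B cell markers was 33.5 to 48.6 CPM in Th2, 16.3 to 32.2 CPM in Th17 and 4.45 to 9.31 CPM in Th1. Of 7 measured, 7 were called lower in Th1 than in Th2, where 28.1% of all genes were called in either direction. Cr2 was at 0 in every Th1 library, as were Ms4a1 and Pax5 in at least 1. The sum of 7 dendritic cell markers was 4.71 to 8.87 CPM in Th2, 1.97 to 3.18 CPM in Th17 and 0.92 to 2.09 CPM in Th1. Of 3 measured, 2 were called lower in Th1 than in Th2. The order Th2, Th17, Th1 is also that of the mean level of Hdac4. Their part in the result was not tested.

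In the fits to all 12 libraries, both Th1 libraries of day 2.5 included, the other genes of these pathways differed here and there. Between Th1 and Th2, 6 of 19 measured class IIa partners and kinases were called, 4 higher and 2 lower in Th1, with a list median of 0.15 against 0.07 over all genes. That share is close to the 28.1% called over all genes. Mef2c, a MEF2 factor that B cells also express, was called lower, and its fitted size is not given because several Th1 libraries held next to no reads of it. Ywhaq, a 14-3-3 protein, stood at 1.05 ± 0.15, Sik3, a kinase of class IIa enzymes, at -0.67 ± 0.11, and Ywhae at 0.51 ± 0.11 (edgeR adjusted p = 0.00159, 0.00284 and 0.0101).

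Of 12 NuRD genes 2 were higher in Th1 and 1 lower, among them Chd3, a chromatin remodeller, at 0.81 ± 0.09. Of 13 measured Sin3 genes 3 were lower in Th1 (Arid4a at -0.87 ± 0.11, Sap30 at -0.92 ± 0.19 and Sin3b at -0.41 ± 0.10) and none higher. Of 6 NCoR complex genes 1 was higher, Tbl1x at 0.80 ± 0.10, and 1 lower. The acetyltransferase genes gave Kat2a at 0.96 ± 0.28 and Ep300, which encodes p300, at -0.33 ± 0.10, 2 of 10 called. CoREST gave Kdm1a at 0.31 ± 0.10, 1 of 6, and the other deacetylases Sirt7 at -0.34 ± 0.11, 1 of 8. List medians of these 6 sets ran from -0.33 (CoREST) to 0.03. Over all genes, the median was 0.07 and 28.1% were called.

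Between Th2 and Th17, 11.8% of 13503 genes were called, and the list counts for these cultures are to be read against that share. Mef2c at 3.61 ± 0.53 and Sik3 at 0.58 ± 0.11 were higher in Th2. Ywhaq at -0.59 ± 0.15 was lower, which made 3 of 19 on their list. Arid4a was higher in Th2 at 0.92 ± 0.11, 1 of 13 Sin3 genes, and Chd3 lower at -0.38 ± 0.09, 1 of 12 NuRD genes. Of 6 NCoR complex genes 1 was higher and 1 lower, the latter Tbl1x at -0.45 ± 0.10. Sirt2, a sirtuin, was lower at -0.38 ± 0.10, and no CoREST or acetyltransferase gene was called. Between Th1 and Th17 the 7 lists gave 1 lower gene among the other deacetylases, 1 higher NuRD gene and no other call. Over all genes, 4.66% were called there.

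Over time, Hdac4, Hdac5 and Hdac7 fell and Hdac1 rose in Th2 and Th17 cultures. In Th1 their values ran the other way. Tested within single cell types, 2 pairs each, none of these 4 genes passed in Th1, Th2 or Th17 (edgeR adjusted p of 0.097 or more), where 5.7%, 0% and 0% of 13503 genes were called. Unadjusted p values under 0.05 went to Hdac1, Hdac5 and Hdac7 in Th1 and Hdac4 in Th17. DESeq2 called Hdac7 in Th1 (adjusted p = 0.0231), where it called 8.02% of genes, while limma-voom called no member. Fitted to all 12 libraries, 0 of 10 members and 0% of 13503 genes were called between day 3.5 and day 2.5 (edgeR, adjusted p under 0.05). No member and 1458 genes had an unadjusted p under 0.05, and DESeq2 and limma-voom called no member. In the 4 pairs of Th2 and Th17 libraries, 4 of 10 members were called, where 38.6% of 13086 genes were called. A count of 4 in 10 is near that background. The fit to these 4 pairs was planned only as an alternative to the fit to all 12 libraries.

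Hdac1 rose by 0.28 ± 0.06 in Th2 and Th17 (log2, edgeR adjusted p = 0.0045). Its level went from 119 to 153 CPM in Th2 WT, from 124 to 177 in Th2 NFATc1/ΔS, from 162 to 205 in Th17 WT and from 142 to 203 in Th17 NFATc1/ΔS, so all 4 pairs rose. In Th1 it went from 177 to 153 CPM in WT and from 264 to 163 CPM in NFATc1/ΔS.

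Hdac4 fell by 0.51 ± 0.12 in Th2 and Th17 (edgeR adjusted p = 0.0087), with pair differences of -0.60 and -0.35 in Th2 and -0.97 and -0.17 in Th17, WT first. Hdac5 fell by 0.26 ± 0.07 (edgeR adjusted p = 0.019), with pair differences of -0.16, -0.10, -0.47 and -0.31 in the same order. Hdac7 fell by 0.21 ± 0.07 (edgeR adjusted p = 0.038), with pair differences of -0.34 and -0.29 in Th2 and -0.23 and -0.005 in Th17. These pair differences carry TMM scaling between libraries, and on that scale all 4 pairs were below 0 for these 3 genes. Hdac7 in Th17 NFATc1/ΔS was below 0 by little. By CPM, scaled to library totals alone, Hdac4 in Th17 NFATc1/ΔS went from 45.2 to 45.7. Hdac5 in Th2 NFATc1/ΔS likewise went from 85.9 to 92.9, and Hdac7 in Th17 NFATc1/ΔS from 588 to 666. The other pairs of these genes fell by CPM too. In Th1 the same 3 genes were higher at day 3.5 in both genotypes. The Th1 differences were 0.25 (WT) and 0.52 (NFATc1/ΔS) for Hdac4, 0.09 and 0.93 for Hdac5, and 0.30 and 1.27 for Hdac7. With all 12 libraries Hdac7 therefore stood at 0.11 ± 0.21, opposite in sign to the 4 pairs. All 4 calls were lost when the fit had no term for cell type and genotype (edgeR adjusted p of 0.051 to 0.256), and the calls of Hdac5 and Hdac7 were lost without the Th17 WT pair (0.0562 and 0.0517). Hdac5 was also lost without the Th17 NFATc1/ΔS pair (0.0607), and Hdac7 without either Th2 pair (0.173 and 0.117).

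**Figure D5:**
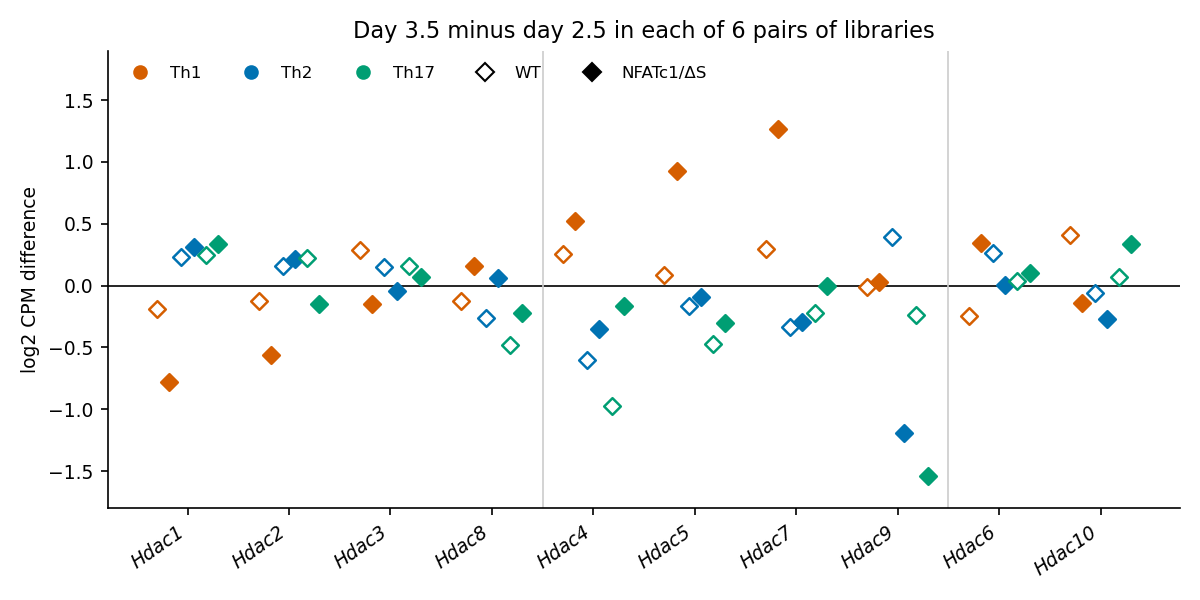
Log2 CPM difference, day 3.5 minus day 2.5, of each member in each of 6 pairs of libraries, coloured by cell type, open for WT and filled for NFATc1/ΔS. For Hdac4, Hdac5 and Hdac7 both Th1 points lie above 0 and no Th2 or Th17 point does, and for Hdac1 the order is turned round.

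The other 6 members did not pass the test over time in Th2 and Th17. Hdac2 stood at 0.11 ± 0.08, Hdac3 at 0.08 ± 0.07, Hdac6 at 0.10 ± 0.08 and Hdac10 at 0.02 ± 0.13, each with an edgeR adjusted p of 0.27 or more. Hdac8 stood at -0.23 ± 0.11 (0.10) in total reads and at -0.14 ± 0.13 (0.40) in exon reads. It passed without the Th2 NFATc1/ΔS pair (-0.32 ± 0.11, edgeR adjusted p = 0.0443), where 32.9% of genes were called. Hdac9 stood at -0.70 ± 0.33 (0.15) in total reads and at 0.22 ± 0.51 (0.75) in exon reads. In total reads Hdac9 passed with no filter on low counts (-0.70 ± 0.15, edgeR adjusted p = 3.52e-05) and without the Th2 WT pair (-1.07 ± 0.24, 0.0105). Of all genes, 23% and 31.2% were called in these fits.

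The test of whether the day effect differed between the 3 cell types called no member, where 4.83% of 13503 genes were called. Hdac1 had an edgeR adjusted p of 0.11, Hdac7 of 0.13, Hdac4 of 0.14 and Hdac5 of 0.17, and these 4 had an unadjusted p under 0.05. DESeq2 called Hdac7 (adjusted p = 0.0299), 1 of 10 members where it called 12.4% of genes. The outcome turned on the Th1 libraries of day 2.5. Without the WT library, 4 of 10 members were called where 46.8% of genes were (Hdac7, Hdac5, Hdac1 and Hdac2, edgeR adjusted p = 9.1e-06, 2.58e-05, 4.7e-05 and 0.00562). Without the NFATc1/ΔS library, 2 of 10 were called where 23.1% of genes were (Hdac7 and Hdac1, edgeR adjusted p = 0.0388 and 0.040). Neither leaves more than 1 Th1 library at day 2.5.

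Markers of red cells also fell over these days. The summed level of 6 erythroid markers in Th2 and Th17 was 6.76, 19.1, 23.5 and 17.9 CPM at day 2.5 and 1.55, 2.24, 3.06 and 1.74 CPM at day 3.5 (Th2 WT, Th2 NFATc1/ΔS, Th17 WT, Th17 NFATc1/ΔS). All 4 measured were called lower, all of them globin genes. Of 5 measured CD8 T and NK cell markers 3 were called lower too (Cd8a, Cd8b1 and Nkg7), with a list median of -0.40 against 0.03 over all genes. Of all 13086 genes, 38.6% were called in these pairs in either direction. The part of either list in the fall of Hdac4, Hdac5 and Hdac7 was not tested.

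Partners of both enzyme groups were called in the same 4 pairs, in both directions, and their shares are to be read against the 38.6% called over all genes. Of 12 NuRD genes 3 rose and 4 fell, with Gatad2b at -0.49 ± 0.06, Mta1 at -0.41 ± 0.06, Rbbp7 at 0.45 ± 0.07 and Cdk2ap1 at 0.31 ± 0.08. Of 13 Sin3 genes 3 rose and 1 fell (Ing2 at -0.76 ± 0.07, Suds3 at 0.37 ± 0.07, Brms1l at 0.59 ± 0.15 and Brms1 at 0.41 ± 0.11). CoREST had 1 riser, Hmg20b at 0.46 ± 0.10, and 3 that fell, led by Rcor2 at -0.94 ± 0.12. In the NCoR complex, where HDAC3 works, 1 of 6 was called, Tbl1xr1 at -0.78 ± 0.07.

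Of 19 class IIa partners and kinases 2 rose and 6 fell. The 14-3-3 gene Ywhab rose at 0.52 ± 0.07, the calcium-dependent kinase genes Camk4 and Camk2d fell at -0.42 ± 0.06 and -0.35 ± 0.09, and Mef2a fell at -0.26 ± 0.07 (edgeR adjusted p = 0.000334, 0.00062, 0.00852 and 0.0128). The list median was -0.08 against 0.03 over all genes. Among the other deacetylases Hdac11, the class IV enzyme, fell at -1.59 ± 0.24 (edgeR adjusted p = 0.000648) and the 7 sirtuins were not called. Of 10 acetyltransferase genes Hat1 and Kat2b rose at 0.30 ± 0.08 and 0.37 ± 0.11.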

How the data were processed

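Per the labels, poly(A) RNA of 12 libraries was sequenced; the authors deposited, per library, read counts per gene (total, unique, exon and intron) with TPM values, on GRCm38 per the submitters' processing notes. For the aligner, the counter and strand use, the record is: not given in the sources used here. TPM computed again from exon reads and exon length differed from the deposited TPM by at most 5e-07. Samples were grouped by culture condition, genotype and day as labelled.

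Total gene reads were tested with edgeR 4.0.16 (R 4.3.3), with TMM scaling, a filter on low counts (minimum count 10, total 15), a robust quasi-likelihood fit and Benjamini-Hochberg adjustment over all genes tested, called under 0.05. The SE was taken from the fold change and its F statistic (size over root F). Genotype and day were compared within pairs, with blocks for the other factors. A prior count of 2 and TMM scaling went into the log2 CPM differences of pairs, while CPM levels were scaled to library totals alone. The test was checked on simulated data. The simulated counts had less scatter than the fits to all 12 libraries, no differences between pairs and no library that stood apart. Their changes were larger than most of those of the members, so the check does not cover these features of the data.

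Alternatives were DESeq2 1.42.0, limma-voom (limma 3.58.1), RLE scaling, no filter, unique or exon reads, no blocks, and leaving out libraries or pairs. Exon reads, the fits to 8 libraries in the cell type comparison and the fits without both Th1 libraries of day 2.5 were chosen after seeing the data. The day fit to the 8 Th2 and Th17 libraries was planned only as an alternative to the fit to all 12 libraries. Its use as a comparison of its own, with its own alternatives, was not planned. Leaving out the Th1 NFATc1/ΔS library of day 2.5 alone was planned only in the cell type comparison.

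All 10 members are described. Of each list, up to 4 called genes of smallest unadjusted p are named. Some genes that these rules pick are not reported here. Genes most like a member are the 3 of largest Pearson r among genes of mean log2 CPM of at least 1. The members and lists were chosen with earlier results of these data known. Promoter windows came from a RefSeq table on GRCm38.p6. With 1 library per combination, every comparison takes its error from the agreement of pairs or cultures.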

Additional observations from a re-analysis of the deposited data

Results flagged for a closer look

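In 30 groups of 4 libraries (10 members in 3 cell types), 2 held 1 library far from the other 3. Among replicates, chance alone does this in about 1 of 20 groups. The 4 libraries of a group differ in genotype and day and are not replicates, so that rate need not hold here. Hdac2 had 110.2 CPM in the Th17 WT library of day 3.5, against 88.5 to 91.8 CPM in the other Th17 libraries. Hdac9 had 10.3 CPM in the Th17 NFATc1/ΔS library of day 2.5, against 3.80 to 4.24 CPM in the others. That library held 6 exon reads and 138 intron reads of Hdac9.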

How the results depend on the processing

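Over 129 alternative fits, 1228 of 1290 member values kept their side of the threshold, 16 were no longer past it, 44 came to pass it and 2 changed sign with a call. Of the 1228, 69 changed sign without a call in either fit, and the tests of differences between cell types have no direction. The counts of called members follow, each with the share of all genes called in the same fit. Over the 4 genotype pairs the count went from 0 (1.96%) to 1 with no read filter (2.67%). Between Th1 and Th2 it was 1 in the main fit (28.1%). It was 2 with RLE scaling (27.6%), DESeq2 (33.3%), limma-voom (28.5%), unique reads (29.4%), exon reads (28.6%) or no blocks (30.7%). Without both Th1 libraries of day 2.5 it was 2 (46.5%), and without single libraries 1 to 2 (15.3 to 31.9%). Between Th1 and Th17 it went from 0 (4.66%) to 1 with DESeq2 (12.5%). It was also 1 without both Th1 libraries of day 2.5 (30.4%), where Th1 is at day 3.5 only and Hdac1 changed sign to -0.33. Between Th2 and Th17 it was 1 in the main fit (11.8%) and 2 with RLE scaling (11.8%), limma-voom (11.7%) or no blocks (12.8%). It was 3 with DESeq2 (16%) and 0 with exon reads (11.9%). On the 8 Th2 and Th17 libraries it was 4 (40.4%), and 5 with their exon reads (41.2%). Without both Th1 libraries of day 2.5 it was 4 (41.2%), and without single libraries 0 to 3 (5.42 to 22%). The day comparison went from 0 (0%) to 4 on the 8 Th2 and Th17 libraries (38.6%), where Hdac7 changed sign to -0.21. Over those 4 day pairs the count went from 4 (38.6%) to 0 with no blocks (15.8%) and was 2 to 4 without single pairs (29.1 to 33.7%). The difference of the day effect between cell types went from 0 (4.83%) to 1 with DESeq2 (12.4%). More members passed without single Th1 libraries of day 2.5, fits in which the Th1 libraries left add no scatter. The cause of these changes was not tested. Depth limits Hdac9 most, with 1 to 19 exon reads per library.

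No paired analysis by replicate number was possible because the labels number no replicates and each combination has 1 library.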
